A study of Mus musculus with 19 samples.

Results

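The UDP-glucuronosyltransferases (UGT), glutathione S-transferases (GST) and sulfotransferases (SULT) are the main conjugating enzymes of the liver, and binding of YAP and TEAD was examined at their genes. Genes were chosen by symbol among the protein-coding genes of the GENCODE annotation for the NCBIM37 (mm9) mouse assembly: symbols that open with Ugt and a digit, with Gst and a class letter (a, k, m, o, p, s, t or z), or with Sult and a digit. This gave 60 of 22380 protein-coding genes. Of these, 9 lie at the Ugt1a locus on chromosome 1 and were treated apart, because that locus held dense YAP peaks also in WT livers. The other 51 were 12 UGT, 22 GST and 17 SULT genes. They include Gstm2-ps1, which is named as a pseudogene but typed as protein-coding, whereas Sult2a7 was typed as a pseudogene and left out. For each gene, the window was the gene body with 10 kb on either side, and the promoter ran from 2000 bp upstream to 1000 bp downstream of any annotated transcription start.

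Chromatin immunoprecipitation followed by sequencing (ChIP-seq) had been performed in whole mouse livers with an antibody against YAP, the coactivator held in check by Hippo signalling, or against TEAD, the DNA-binding protein that recruits YAP. The livers were of C57BL/6 background and carried the ROSA26-rtTA-IRES-EGFP allele, the doxycycline-dependent transactivator. WT livers lacked the inducible transgene and came from mice on doxycycline food for 7 days, and tetYAP livers came from mice on the same food for 3 days (3 d) or 7 days (7 d). The 19 samples formed 6 groups of 3, except TEAD at 7 d with 4, and the authors merged each group into 1 peak list. According to the study's methods, the transgene encoded YAP S127A, an active mutant, and the mice also carried alb-CRE, Cre under the albumin promoter, which is active in hepatocytes. Whether the WT livers also carried Cre is not given in the labels, and the TEAD antibody, per the methods, recognizes several TEAD proteins. Tissue was crosslinked with DSG and formaldehyde for YAP and with formaldehyde alone for TEAD. Whole livers were used, so a change in cell makeup and a change in binding per cell cannot be told apart. With 1 merged list per group there is no spread between replicates, no test between conditions was possible, and intervals given below cover counting error over genes only.

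UGT enzymes of the endoplasmic reticulum attach glucuronic acid to bilirubin, steroids, bile acids and drugs, GST enzymes attach glutathione to electrophiles, and cytosolic SULT enzymes attach sulfate to phenols, steroids and bile acids. The conjugates are more soluble in water and leave the hepatocyte in bile or blood. Many of these genes are active in differentiated hepatocytes, and many respond to nuclear receptors and to the antioxidant factor NRF2.

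Sequences at the summits of the strongest TEAD peaks at 7 d are shown first, because the results below turn on these sites. Each has 101 bases of the NCBIM37 assembly centred on the summit of the TEAD peak at 7 d, plus strand, 5′ to 3′. Capitals mark GGAATG or its reverse complement, the core letters of the TEAD motif. In the Gstp2 site, which has neither, capitals mark TGACTCA and the overlapping TGACNNNGC, the core letters of the AP-1 and antioxidant response elements, which lie on the minus strand.
The first 6 are the sites that also held a YAP peak at 7 d.
Gsta3 intron (chr1:21243170-21243270): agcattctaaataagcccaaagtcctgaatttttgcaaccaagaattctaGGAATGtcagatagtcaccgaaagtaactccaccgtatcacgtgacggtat
Ugt2b36 body (chr5:87518339-87518439): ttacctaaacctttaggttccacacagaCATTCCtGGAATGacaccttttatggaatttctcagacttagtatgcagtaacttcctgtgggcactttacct
Ugt2b1 upstream (chr5:87363800-87363900): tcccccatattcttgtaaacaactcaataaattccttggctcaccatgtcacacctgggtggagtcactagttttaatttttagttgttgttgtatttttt
Gstm5 upstream (chr3:107692340-107692440): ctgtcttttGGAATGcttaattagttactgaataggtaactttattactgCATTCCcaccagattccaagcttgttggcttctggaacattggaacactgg
Sult1a1 upstream (chr7:133824800-133824900): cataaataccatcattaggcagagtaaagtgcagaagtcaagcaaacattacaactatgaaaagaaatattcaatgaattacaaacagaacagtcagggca
Gstz1 upstream (chr12:88482587-88482687): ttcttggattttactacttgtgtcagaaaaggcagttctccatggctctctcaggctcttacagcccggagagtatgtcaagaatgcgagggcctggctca
The other 4 are strong TEAD sites without a YAP peak, of which Gsta2, Gstm7 and Sult1a1 are promoters.
Gsta2 promoter (chr9:78202664-78202764): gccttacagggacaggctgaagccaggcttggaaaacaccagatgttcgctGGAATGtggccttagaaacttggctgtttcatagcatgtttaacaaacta
Gstm7 promoter (chr3:107734813-107734913): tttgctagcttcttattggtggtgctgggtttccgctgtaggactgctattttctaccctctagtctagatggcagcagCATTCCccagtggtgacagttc
Sult1a1 promoter (chr7:133819836-133819936): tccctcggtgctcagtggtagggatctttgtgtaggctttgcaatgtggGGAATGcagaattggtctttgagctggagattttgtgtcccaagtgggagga
Gstp2 upstream (chr19:4046217-4046317): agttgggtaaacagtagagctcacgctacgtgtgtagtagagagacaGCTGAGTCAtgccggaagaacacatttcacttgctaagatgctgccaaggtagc
The TEAD core letters stood in the windows of Gsta3, Ugt2b36, Gstm5, Gsta2, Gstm7 and the Sult1a1 promoter. In Ugt2b36 they stood on both strands, as a pair 1 base apart. Their absence from the windows of Ugt2b1, Gstz1, the upstream site of Sult1a1 and Gstp2 says only that these letters are not within 50 bp of the summit.

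YAP peaks at these genes appeared only in the 7 d list, apart from the Ugt1a locus. None of the 51 genes had a YAP peak in its window in WT livers (background 0.116% of protein-coding genes) or at 3 d (background 0.161%), and a count of 0 allows a share of up to 7.0% by the 95% Wilson interval. At 7 d, 6 of 51 did, or 11.8% (95% Wilson interval 5.51 to 23.4%), against a background of 4.79%. They were 3 of 22 GST genes, 2 of 12 UGT genes and 1 of 17 SULT genes. No YAP peak touched a promoter of the 51 genes in any list, where the background was 0.0357% in WT livers, 0.0715% after 3 d and 1.04% after 7 d.

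TEAD peaks were more widespread. In WT livers 22 of 51 genes (43.1%, 30.5 to 56.7%) had a TEAD peak in the window, against 20.2% of protein-coding genes. The count was 42 (82.4%, 69.7 to 90.4%) at 3 d and 40 (78.4%, 65.4 to 87.5%) at 7 d, with backgrounds of 58.8% and 59.6%. The background lay below the interval in each of the 3 TEAD lists. These intervals count genes as independent, which genes that share a peak are not. In WT livers the share was 23.0 points above the background, and 8.48 points above it with 5 kb on either side. The median window was 35.6 kb for these genes and 35.4 kb for all protein-coding genes. Neighbouring genes share windows and peaks: the 51 genes merged into 39 loci, of which 16, 32 and 29 had a TEAD peak in the lists of WT livers, 3 d and 7 d.

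TEAD peaks were found at 14 of 22 GST genes in WT livers (63.6%, 43.0 to 80.3%) and at 20 at both 3 d and 7 d (90.9%, 72.2 to 97.5%), although GST genes had the shortest windows, with a median of 26.5 kb. Among UGT genes, 5 of 12 had one in WT livers, 11 after 3 d and 10 after 7 d. Among SULT genes, the counts were 3, 11 and 10 of 17, that is 17.6%, 64.7% and 58.8%, close to the backgrounds, with a median window of 49.1 kb. Per 100 kb of merged locus, GST genes had 2.17, 10.3 and 10.3 TEAD peaks in the 3 lists, UGT genes 0.948, 6.26 and 5.12, and SULT genes 0.476, 2.50 and 2.38, compared with 0.349, 2.27 and 2.37 over all protein-coding genes. These densities place GST loci highest in each list and SULT loci near the background, and the difference between families was not tested. The merged regions were unlike in length, so their densities are not fully comparable. There were 14 GST loci in 553.1 kb, 11 UGT loci in 527.2 kb and 14 SULT loci in 839.7 kb. All protein-coding genes gave 9301 regions in 1254611.8 kb.

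The TEAD lists also differed in length. There were 5695, 36446 and 38984 TEAD peaks in the lists of WT livers, 3 d and 7 d, from 35168765, 55032002 and 38523843 tags, and 156, 110 and 1478 YAP peaks from 54661175, 36221830 and 34260362 tags. When each TEAD list was cut to its strongest 5695 peaks, 15 of the 51 genes had a peak at 3 d and 15 at 7 d, fewer than the 22 in WT livers. A promoter peak was left at 5 and 4, fewer than the 8 in WT livers. Most genes with a TEAD peak at 3 d or 7 d therefore had none among the strongest 5695 of that list. Backgrounds in the cut lists were 19.7% and 18.1% for windows at 3 d and 7 d, compared with 20.2% in WT livers. For promoters they were 7.72% and 5.95%, compared with 8.73%.

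**Figure D1:**
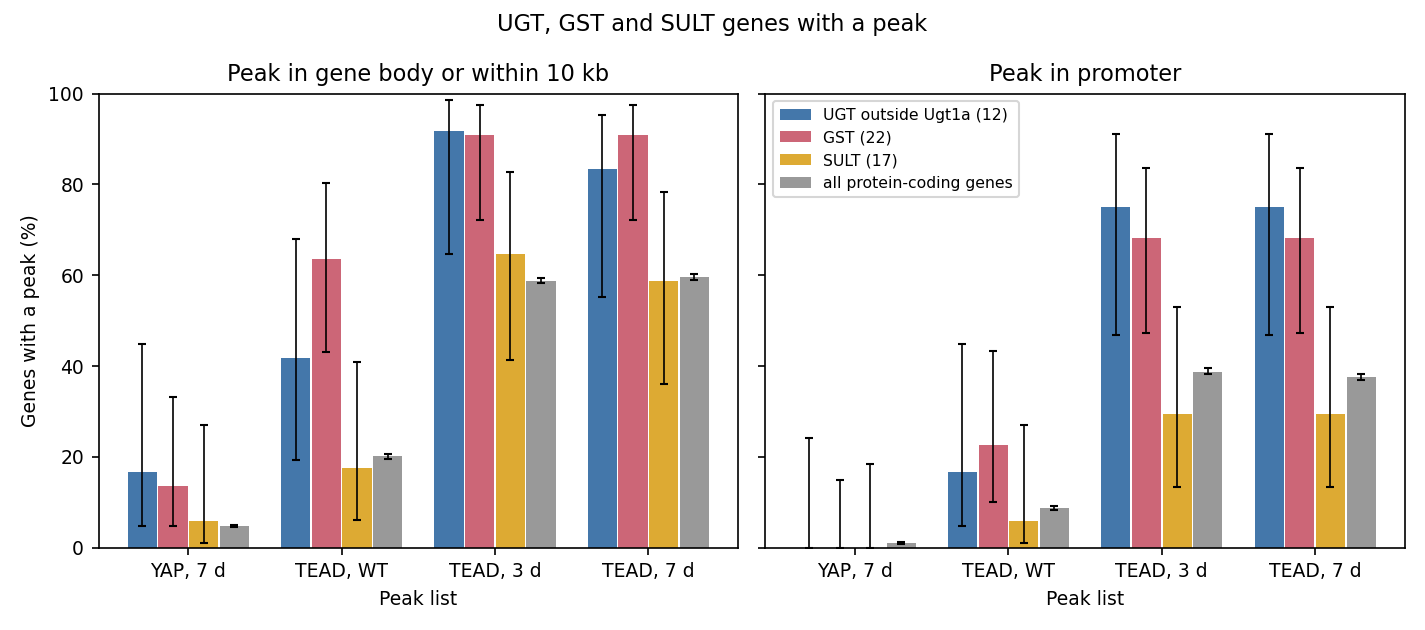
Share of genes with a peak in the gene window (left) or promoter (right) in the YAP list at 7 d and the 3 TEAD lists, with 95% Wilson intervals. GST genes stand highest in the TEAD list of WT livers at 63.6%, SULT genes stay near the grey bars of all protein-coding genes, and no family has a YAP peak in a promoter.

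**Figure D2:**
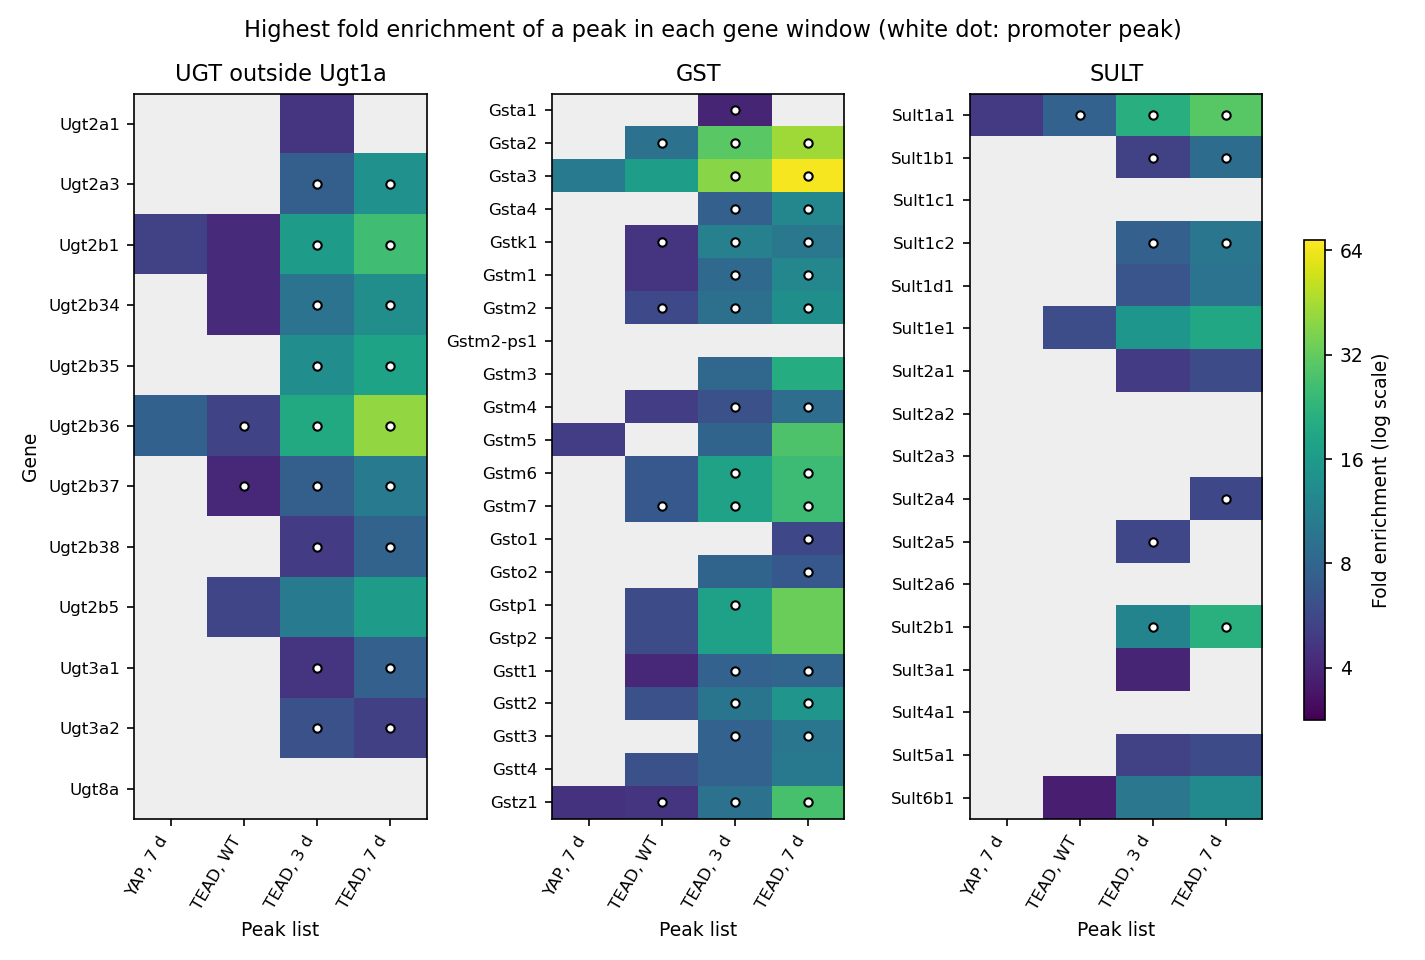
Highest fold enrichment of any peak in the window of each of the 51 genes, by list, on a log colour scale, with grey for no peak and a white dot for a promoter peak. Gsta3 and Gsta2 reach the highest TEAD values at 7 d (65.4 and 43.6), and 7 genes have no peak in these lists.

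Fold enrichment below is the ratio of fragment pileup at the summit to the local background, as the peak caller gave it for each list. Fragment lengths in the caller were 400 bp for TEAD in WT livers, 207 bp after 3 d and 206 bp after 7 d, so that folds in WT livers and later lists are not on an identical footing.

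Of the 6 sites with a YAP peak at 7 d, that of Gsta3, an alpha-class GST, stood out. The YAP peak (chr1:21243006-21243621) lay in an intron, with its summit 12487 bp downstream of the transcription start. Its fold was 10.69, and by −log10 p-value it stood at rank 45 of 1478. The TEAD peak at this place had fold enrichments of 16.87 in WT livers, 38.9 after 3 d and 65.43 after 7 d, where it ranked 4 of 38984. It was thus a strong TEAD site already in WT livers, where it ranked 63 of 5695. The Gsta3 promoter itself had only weak TEAD peaks, with folds of 5.37 at 3 d and 5.47 at 7 d.

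Ugt2b36, a member of the Ugt2b cluster on chromosome 5 whose enzymes act on steroids and other lipophilic compounds, had the next strongest YAP peak. It lay in an intron (chr5:87518032-87518437), with its summit 1933 bp downstream of the start and a fold of 7.64, rank 281. TEAD folds at this site were 5.45 in WT livers, 19.7 after 3 d and 41.0 after 7 d. The Ugt2b36 promoter, a separate TEAD site of all 3 lists, was lower, at 3.92, 5.46 and 10.25.

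The other YAP peaks were weaker and ranked between 1045 and 1222 of 1478. Ugt2b1 had one (chr5:87363719-87364002) between genes, 8244 bp upstream of its start, with a fold of 5.24. TEAD there was found at 3 d and 7 d only, with folds of 16.58 and 25.92. Sult1a1, which sulfates phenols, had one (chr7:133824672-133824929) between genes, 4831 bp upstream, with a fold of 4.88. TEAD was present there in all 3 lists, with folds of 5.85, 21.18 and 29.89.

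The remaining pair lay in introns of neighbouring genes. The YAP peak of Gstm5, a mu-class GST, was in an intron of Eps8l3 (chr3:107692162-107692563), 6332 bp upstream of Gstm5, with a fold of 5.02, and TEAD folds rose from 7.88 at 3 d to 28.04 at 7 d with no peak in WT livers. That of Gstz1, the maleylacetoacetate isomerase of tyrosine breakdown, was in an intron of Pomt2 (chr12:88482500-88482749), 6000 bp upstream of Gstz1, with a fold of 4.51. TEAD was found there at 7 d alone, with a fold of 27.0. In each of the 6 cases a TEAD peak of the 7 d list overlapped, a TEAD peak of the 3 d list did so in 5 and one of WT livers in 3. Such overlap was common in this list: of all 1478 YAP peaks at 7 d, 1407, 1324 and 810 overlapped TEAD peaks of these lists. With a flank of 5 kb, Gsta3, Ugt2b36 and Sult1a1 kept their YAP peak, so 3 of the 6 calls rest on the wider window.

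TEAD peaks also lay in promoters. In WT livers 8 of 51 genes had a TEAD peak in a promoter (15.7%, 8.17 to 28.0%), against a background of 8.73%, which lies within the interval. At 3 d and at 7 d 29 did (56.9%, 43.3 to 69.5%), with backgrounds of 38.8% and 37.6%. They were 15 GST, 9 UGT and 5 SULT genes at both times, and the SULT share of 29.4% (13.3 to 53.1%) was the lowest of the families. No gene with a TEAD promoter peak in WT livers lacked one at 3 d or 7 d. Such loss was rare over all protein-coding genes: of 1953 with one in WT livers, 1923 had one in all 3 lists.

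The 8 genes with a TEAD promoter peak in all 3 lists (15.7%, background 8.59%) were Gsta2, Gstk1, Gstm2, Gstm7, Gstz1, Sult1a1, Ugt2b36 and Ugt2b37. Their promoter folds had medians of 5.19 in WT livers, 10.3 after 3 d and 12.5 after 7 d. Gsta2, an alpha-class GST, was the highest in each list, at 9.44, 30.2 and 43.59, where it ranked 394 of 38984. The Sult1a1 promoter had folds of 7.71, 18.88 and 26.39, and that of Gstm7 6.8, 17.84 and 25.05. Gstk1, the kappa-class GST of mitochondria and peroxisomes, was the exception to a rise between 3 d and 7 d, with folds of 4.65, 11.33 and 10.13. The Gstz1 promoter peak also covered the promoter of Pomt2, which starts beside it.

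A further 18 genes (35.3%, background 25.1%) had a TEAD promoter peak at 3 d and 7 d but not in WT livers. They were 8 GST genes (Gsta3, Gsta4, Gstm1, Gstm4, Gstm6, Gstt1, Gstt2 and Gstt3), 7 UGT genes (Ugt2a3, Ugt2b1, Ugt2b34, Ugt2b35, Ugt2b38, Ugt3a1 and Ugt3a2) and 3 SULT genes (Sult1b1, Sult1c2 and Sult2b1). Most of these were weak, with medians of 5.78 at 3 d and 6.83 at 7 d. The genes bound already in WT livers had 10.3 and 12.5. This gap was not particular to these genes. Over all TEAD sites, at promoters or elsewhere, those found at 3 d and 7 d only had medians of 5.75 and 7.54. Those of all 3 lists had 12.1 and 17. Fold was higher at 7 d at 84.4% of all 21738 sites found at 3 d and 7 d only. Among the 18 genes, fold was higher at 7 d than at 3 d in 12. It was lower in Gsta4, Gstm4, Gstt3, Ugt2b34, Ugt2b35 and Ugt3a2. The highest at both times was Sult2b1, which sulfates cholesterol, with 11.98 at 3 d and 21.44 at 7 d. Ugt2a3 came next at 7 d with 14.14, and had 7.39 at 3 d. Gsta4, which acts on the lipid peroxidation product 4-hydroxynonenal, had 7.55 and 6.13, and Sult1b1, which acts on thyroid hormones, 5.25 and 8.72.

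Promoter peaks found at 3 d only were those of Gsta1, Gstp1 and Sult2a5 (5.88%, background 5.15%). Those found at 7 d only were of Gsto1, Gsto2 and Sult2a4 (5.88%, background 3.84%). Folds of the peaks found at 1 time only lay between 3.94 and 5.66. The remaining 19 genes (37.3%, background 57.2%) had no TEAD promoter peak in any list.

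Among sites away from promoters, the pi-class genes Gstp1 and Gstp2 shared a strong one 4046 bp upstream of Gstp2, with folds of 5.83 in WT livers, 17.49 after 3 d and 33.65 after 7 d (rank 771). In the mu cluster, an intron of Gstm6 held a TEAD peak with a fold of 20.26 at 7 d, in the windows of Gstm7, Gstm6 and Gstm3. Sult1e1, the estrogen sulfotransferase, had a site 9594 bp upstream, with folds of 5.98, 15.1 and 18.85. Downstream of Ugt2b35 a TEAD peak reached 17.96 at 7 d, and Ugt2b5 had one 7957 bp upstream with folds of 5.52, 10.38 and 16.26. The best peak in the window of Sult6b1, at 12.96 at 7 d, lay at the promoter of the neighbouring gene 1110001A16Rik. The Sult1c2 promoter had folds of 7.55 at 3 d and 9.9 at 7 d.

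No TEAD peak in any list lay in the windows of 7 of the 51 genes (13.7%), compared with 36.4% of protein-coding genes. Of these, 5 were SULT genes (Sult1c1, Sult2a2, Sult2a3, Sult2a6 and Sult4a1), or 29.4% of that family, which is also below the 36.4%. The others were Ugt8a and Gstm2-ps1. Sult4a1 is known from brain and Ugt8a makes the galactolipids of myelin. The Sult2a cluster on chromosome 7, whose enzymes sulfate bile acids and steroids, had few called TEAD peaks. Sult2a1 had a peak of 4.92 at 3 d and 5.89 at 7 d, and Sult2a5 had peaks of up to 5.58 at 3 d. Sult2a4 had one of 5.66 at 7 d, and the other 3 genes of the cluster had none. The copies of this cluster are alike in sequence, and how the authors treated reads with several alignments is not given in the sources used here. Whether such reads were lost from these genes was not tested.

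Merged over lists, the 51 genes held 125 TEAD sites. Of these, 21 were in all 3 lists (16.8%, compared with 11.4% of all 47146 TEAD sites), 63 at 3 d and 7 d (50.4%, compared with 46.1%), 23 at 3 d only (18.4%, compared with 18.2%) and 18 at 7 d only (14.4%, compared with 23.7%). No site of WT livers was missing from a later list. Over all 47146 sites such losses were few: 198 sites of WT livers lacked a 7 d peak only, 32 a 3 d peak only and 59 both. At the 21 sites of all 3 lists, the median fold was 5.45 in WT livers, 10 after 3 d and 13.9 after 7 d, while that over all such sites was 5.05, 12.1 and 17. Fold rose from WT livers to 3 d and again to 7 d at 20 of the 21 sites (95.2%), as it did at 85.0% of 5366 such sites in all, and the exception was Gstk1. At the 63 sites found at 3 d and 7 d, the medians were 5.52 and 6.60, with 46 of 63 higher at 7 d (73.0%, compared with 84.4% of 21738).

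**Figure D3:**
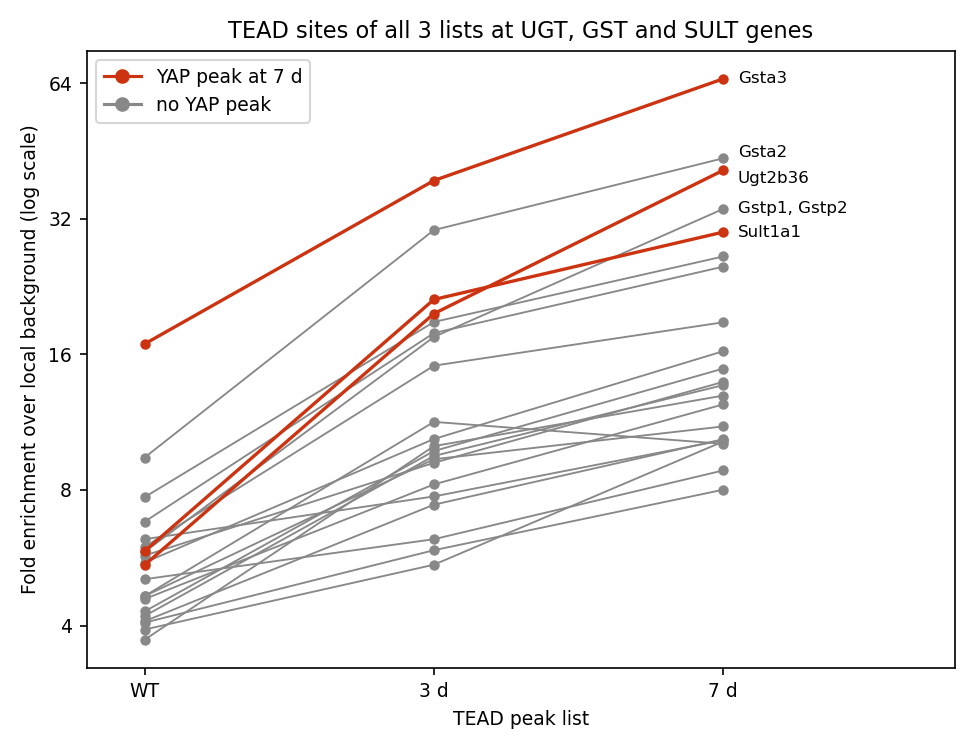
Fold enrichment of TEAD in the 3 lists (log scale) at the 21 sites present in all of them, 1 line per site, in red where a YAP peak was found at 7 d. The sites at Gsta3, Ugt2b36 and Sult1a1 carry YAP, Gsta2 and Gstp2 reach 43.59 and 33.65 without it, and Gstk1 alone falls between 3 d and 7 d.

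The letters at these sites were compared with all peaks of the same list, in windows of 200 bp around the summit and on both strands. GGAATG stood in 12 of 21 TEAD peaks of WT livers (57.1%, compared with 48.6% of all), 33 of 111 at 3 d (29.7%, compared with 30.4%) and 31 of 104 at 7 d (29.8%, compared with 35.2%). It stood in 2 of 6 YAP peaks at 7 d, where the share over all YAP peaks was 58.9%. TGACNNNGC, the core of the antioxidant response element through which NRF2 controls many GST genes, stood in 11.7% of the TEAD peaks at 3 d and 9.62% at 7 d, near the 9.91% and 9.73% of all TEAD peaks. TGACTCA, which can overlap it, was in 5 of 104 peaks at 7 d (4.81%, compared with 6.01%), and CAAAGTCCA, a motif of the hepatocyte factor HNF4A, in 2 of 104 (1.92%, compared with 1.69%).

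The Ugt1a locus (chr1:89941963-90126577) was different. Its 9 genes have separate first exons and share their last exons, and Ugt1a1, the enzyme that conjugates bilirubin, starts closest to the shared part. All 9 genes had a peak in their windows in each of the 6 lists, because the windows share this 3′ part. YAP had 13 peaks in WT livers, 14 after 3 d and 18 after 7 d, that is 8.33%, 12.7% and 1.22% of these lists. Of the 18 in the last list, 15 lay on a YAP peak also called in WT livers and all 18 on one called at 3 d. Over all 1478 YAP peaks at 7 d, 104 lay on a YAP peak of WT livers and 91 on one of 3 d.

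These YAP peaks lay within the last 20 kb, from the Ugt1a1 promoter through the shared exons and into the neighbouring gene Heatr7b1. In the 164.6 kb before that, which hold the first exons of the other 8 genes, YAP had no peak in any list. This border was placed after the peaks had been seen. The YAP folds were alike over time, from 2.68 to 5.17 in WT livers, 2.97 to 5.91 at 3 d and 2.7 to 5.88 at 7 d. Their medians were 3.44, 3.9 and 3.88, compared with 3.8, 4.54 and 5.72 over all YAP peaks of these lists. In the top 10% of their list by −log10 p-value were 2 of 13, 1 of 14 and 0 of 18. GGAATG stood within 100 bp of the summit of 0 of the 18 peaks at 7 d, and anywhere in the peak in 5 of 18 (27.8%, compared with 68.1% of all YAP peaks at 7 d). The only Ugt1a gene with a YAP peak in its promoter was Ugt1a1, in all 3 YAP lists. Whether this stretch gives signal apart from YAP binding was not tested.

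TEAD at the locus had 4 peaks in WT livers, 15 after 3 d and 19 after 7 d. Their median lengths were 3450, 356 and 417 bp, so these are not counts of like peaks. A TEAD peak of WT livers overlapped 5 of the 15 at 3 d and 12 of the 19 at 7 d. In the last 20 kb there were 4, 7 and 12 TEAD peaks. All 4 of WT livers lay in the last 20 kb, with folds of 2.83 to 5.03. In the 164.6 kb of first exons TEAD had 0 peaks in WT livers, 8 after 3 d and 7 after 7 d, with folds of up to 10.5 and 12.2, and no YAP peak beside them. The promoters of Ugt1a5 (10.47 at 3 d and 12.18 at 7 d) and Ugt1a6b (7.55 and 11.78) were bound at these times only, and that of Ugt1a1 in all 3 lists (3.79, 6.13 and 5.28).

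**Figure D4:**
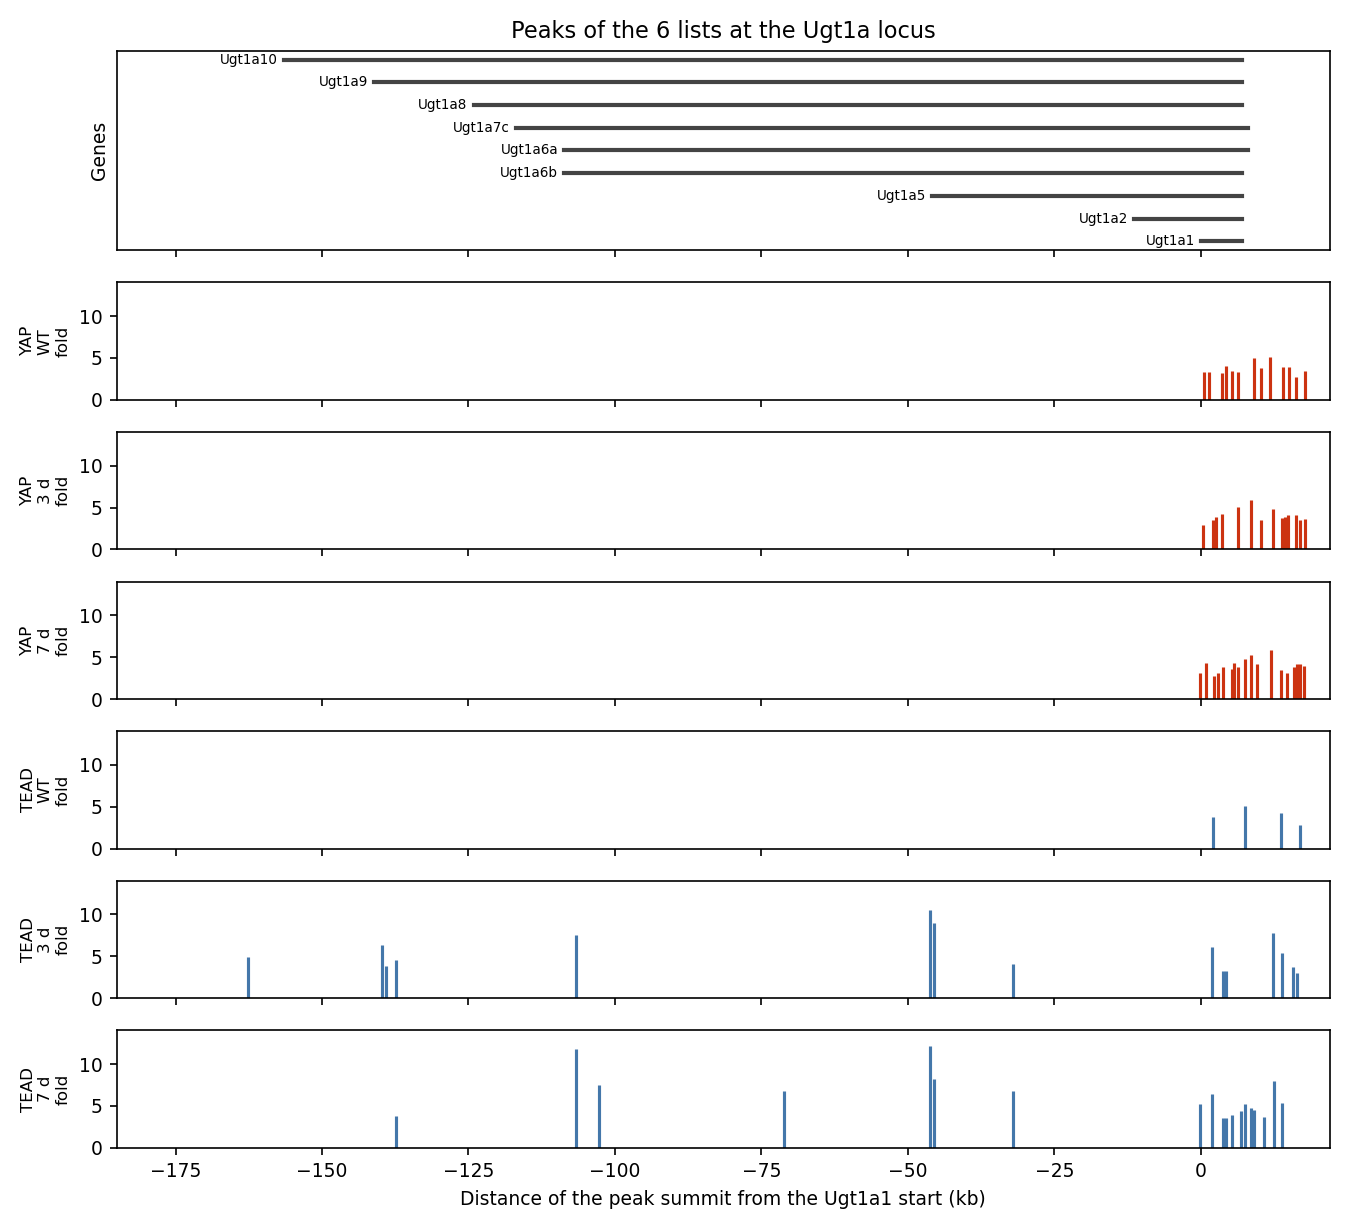
Peaks of the 6 lists at the Ugt1a locus, with the distance of the summit from the Ugt1a1 start in kb on the horizontal axis, fold enrichment as bar height and gene bodies on top. YAP peaks in red crowd the last 20 kb in all 3 lists, and TEAD peaks in blue occur over the first exons only at 3 d and 7 d.

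Genes that supply or regulate these reactions were counted in the same way, from a list of 45 of which 44 were matched. A TEAD peak was in the window of 20 in WT livers, 41 after 3 d and 42 after 7 d, that is 45.5%, 93.2% and 95.5%, beside backgrounds of 20.2%, 58.8% and 59.6%. One was in the promoter of 9, 38 and 36, that is 20.5%, 86.4% and 81.8%, beside backgrounds of 8.73%, 38.8% and 37.6%. Of the 12 genes of cosubstrate supply, all had a TEAD promoter peak at 3 d (background 38.8%) and 9 at 7 d (75.0%, background 37.6%). A YAP peak at 7 d was in the window of 3 of the 44 (6.82%, 2.35 to 18.2%), and the background of 4.79% lies within that interval. Genes with one included Gss (glutathione synthetase, fold 4.88) and Hnmt (histamine N-methyltransferase, 4.67), in both away from the promoter. None of the 13 regulators had a YAP peak at 7 d, which allows a share of up to 22.8%, beside the same background. TEAD promoter peaks of all 3 lists were those of Ahcy, Mat1a, Slc35d1, Baat, Inmt, Nnmt, Arnt, Ppara and Rxra. Slc35d1, which carries UDP-glucuronic acid into the endoplasmic reticulum, had promoter folds of 6.90, 18.5 and 27.1, and Ppara, a nuclear receptor for fatty acids, 5.18, 24.4 and 21.4.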

How the data were processed

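Peak lists were used as deposited. According to the submitters' processing notes and the study's methods, the authors aligned reads with BWA 0.6.2 to mm9, merged the replicates of each group and called peaks with MACS2 2.0.9, and the deposited file headers give a p-value cutoff of 1e-05, tags of 51 bp and 1 control of 167176362 tags for all 6 lists. Each deposited list gives pileup as a signal, along with fold enrichment, the ratio of that pileup to background around the peak. Ranks and filters used the −log10 p-value of the authors, whereas their −log10 q-value was not used.

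Peaks were matched to genes of GENCODE (NCBIM37) by an overlap of at least 1 bp with pandas 2.3.3, and the overlap code was tested on simulated data. Overlapping windows were merged into loci, and overlapping TEAD peaks of the 3 lists into sites. Wilson intervals at 95% came from scipy 1.17.1. The genes, gene lists, motifs and printed sites were chosen with earlier results of these data known.

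Genes named with values were those with a YAP peak at 3 d or 7 d, those with a TEAD promoter peak in all 3 lists or at 3 d and 7 d, the 5 of each family with the TEAD peak of highest −log10 p-value at 7 d, and pathway genes with a YAP peak at 7 d or a TEAD promoter peak in all 3 lists, except 1 that is not reported here. Other genes were named where a count of 7 or fewer called for it. Alternatives covered peak filters, windows, promoters, assignment to the nearest start, overlap, motif window and background.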

Additional observations from a re-analysis of the deposited data

How the results depend on the processing

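No paired analysis was possible because each group was merged into 1 list before deposit, and for the same reason no replicate could be left out. For the shares of genes with a TEAD peak or TEAD promoter peak, no difference from the background changed sign. Small differences in motif shares did change sign. Over whole TEAD peaks at 7 d, TGACNNNGC stood in 18.3%, compared with 17.7% of all, and CAAAGTCCA in 1.92%, compared with 2.44%. With the strongest 5695 peaks per TEAD list, 15 genes had a peak at 3 d and 15 at 7 d, and 5 and 4 had a promoter peak. The difference from the background was then 9.70 percentage points at 3 d and 11.3 at 7 d for windows. For promoters it was 2.08 at 3 d and 1.89 at 7 d. In place of 10 kb, 5 kb on either side left 3 genes with a YAP peak at 7 d and 13 with a TEAD peak in WT livers, 8.48 points above the background. With at least 5-fold enrichment, 14 genes had a TEAD peak and 4 a TEAD promoter peak in WT livers. Filters for the Ugt1a locus were added after seeing the data: at least 5-fold enrichment left 2, 2 and 2 peaks of YAP in WT livers, 3 d and 7 d, and 1, 7 and 11 of TEAD, and 11 YAP peaks at 7 d had a −log10 p-value of 10 or more. Of 147 recomputed values of the main comparisons, 128 stayed within 1.5 times the count or within the interval, and 19 moved. Those that stayed include the YAP counts of 0, which a stricter filter or narrower window could not have changed. They also include a background limited to genes with windows as long as those of the conjugation genes, which was added after seeing the data. Depth and caller settings differed between lists, so a missing peak is not evidence that binding was absent.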
